A study of Homo sapiens with 1 sample.

Results

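The regions described are the ChIP-seq peaks of the Zbtb21K419/845R double mutant that lie close to an end of a gene. A peak was taken when its summit, the base with the most reads, lay within 5 kb on either side of either end of any RefSeq gene of GRCh38.p14, whatever the biotype of that gene. Of the 913 peaks in the list, 233 met this rule, which is 25.5% (95% exact binomial interval 22.7% to 28.5%), and they lay near the ends of 303 genes. The cells were HEK293T, a line derived from human embryonic kidney whose tissue is labelled "Cancer". They had been transfected with a plasmid for zebrafish Zbtb21 in which the lysines K419 and K845 were both replaced by arginine, and they kept their own human ZBTB21. ChIP-seq crosslinks a protein to DNA, recovers the bound fragments with an antibody and counts them along the genome. The antibody, any control library and the settings of the peak caller are not given in the sources used here, and the profile of wild type Zbtb21 was not analysed here. With 1 library there was no spread between replicates and no test between conditions, and the intervals given cover counting error only.

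ZBTB proteins read DNA sequence through a row of C2H2 zinc fingers, and a BTB domain lets them join into dimers. The family is known mainly for silencing target genes, together with enzymes that modify chromatin. SUMO is a small protein that is joined to lysines of other proteins, and many of its substrates are transcription factors. ZBTB21 binds the related protein ZBTB14. The place of a bound site relative to a gene matters because transcription begins at the promoter, around the gene start, while the 3′ end is where the transcript is cleaved and the polymerase leaves.

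Some of the promoter windows that a peak reached are shown first, since they are the only sequences read under these peaks, most of which lay elsewhere. A promoter here is the stretch from 250 bases before to 50 bases after a start, as given by RefSeq for GRCh38.p14. Of all promoter sequences, 9 shared at least 1 base with one of the 233 peaks, and in 2 of them the summit itself lay in the window. Over the 34961 windows, the share of bases gives 5.94 reached by a peak of the list and 3.32 with a summit inside. These 2 belonged to the lncRNA genes LOC105378650 (chr1:37767267-37767566, minus strand) and LOC107986229 (chr4:74585056-74585355, minus strand). A further 4 were chosen after their values were seen, for the strength of the peak or a coding gene beside it, and belonged to DENND2B-AS1 (chr11:8768528-8768827, plus strand), OR2S2 (chr9:35958105-35958404, minus strand), DHPS (chr19:12681321-12681620, minus strand) and DNASE1L2 (chr16:2236194-2236493, plus strand). Each sequence runs 5′ to 3′ on the strand of its gene, and the capitals mark the bases covered by the peak.
LOC105378650: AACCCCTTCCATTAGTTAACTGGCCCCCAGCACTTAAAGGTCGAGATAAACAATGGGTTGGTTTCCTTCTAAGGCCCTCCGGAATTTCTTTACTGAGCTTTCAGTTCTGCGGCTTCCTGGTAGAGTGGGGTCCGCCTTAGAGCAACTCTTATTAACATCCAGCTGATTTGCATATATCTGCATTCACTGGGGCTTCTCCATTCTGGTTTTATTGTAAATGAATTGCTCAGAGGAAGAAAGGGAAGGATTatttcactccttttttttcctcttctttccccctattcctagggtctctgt
LOC107986229: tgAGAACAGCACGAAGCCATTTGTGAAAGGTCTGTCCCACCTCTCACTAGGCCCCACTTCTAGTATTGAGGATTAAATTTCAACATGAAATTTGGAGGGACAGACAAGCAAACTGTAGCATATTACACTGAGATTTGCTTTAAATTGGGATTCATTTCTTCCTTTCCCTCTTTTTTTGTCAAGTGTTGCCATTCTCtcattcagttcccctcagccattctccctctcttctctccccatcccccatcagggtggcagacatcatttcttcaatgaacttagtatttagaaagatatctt
DENND2B-AS1: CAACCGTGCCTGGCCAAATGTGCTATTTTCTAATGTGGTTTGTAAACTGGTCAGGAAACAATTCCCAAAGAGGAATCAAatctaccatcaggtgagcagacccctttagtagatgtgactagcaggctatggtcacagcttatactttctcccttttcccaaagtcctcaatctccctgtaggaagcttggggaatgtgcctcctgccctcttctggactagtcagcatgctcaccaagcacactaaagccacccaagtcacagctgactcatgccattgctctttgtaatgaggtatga
OR2S2: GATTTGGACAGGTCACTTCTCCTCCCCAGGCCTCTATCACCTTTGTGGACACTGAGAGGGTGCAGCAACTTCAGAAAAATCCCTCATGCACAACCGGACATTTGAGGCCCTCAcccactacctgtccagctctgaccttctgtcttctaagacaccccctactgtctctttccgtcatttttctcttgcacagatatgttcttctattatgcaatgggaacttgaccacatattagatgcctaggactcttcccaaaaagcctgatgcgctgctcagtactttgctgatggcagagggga
DHPS: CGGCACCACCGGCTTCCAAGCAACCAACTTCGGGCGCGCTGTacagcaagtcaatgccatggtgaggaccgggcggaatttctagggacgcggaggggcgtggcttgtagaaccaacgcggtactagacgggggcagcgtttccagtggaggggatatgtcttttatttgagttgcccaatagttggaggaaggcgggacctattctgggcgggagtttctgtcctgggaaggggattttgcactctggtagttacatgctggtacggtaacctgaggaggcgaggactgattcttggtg
DNASE1L2: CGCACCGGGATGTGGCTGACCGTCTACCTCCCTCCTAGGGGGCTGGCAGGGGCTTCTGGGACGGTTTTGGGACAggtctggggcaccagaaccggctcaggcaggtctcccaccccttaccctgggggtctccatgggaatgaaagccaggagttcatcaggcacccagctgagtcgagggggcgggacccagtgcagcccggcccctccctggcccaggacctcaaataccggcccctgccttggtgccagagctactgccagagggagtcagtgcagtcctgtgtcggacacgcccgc

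The peak at LOC105378650 covered 249 of the 300 bases of the window, and the peak at LOC107986229 covered 194. The others came in from the upstream side and covered 113 bases at OR2S2, 79 at DENND2B-AS1, 74 at DNASE1L2 and 42 at DHPS. The GC content of the windows was 44.3% at LOC105378650, 41.7% at LOC107986229, 47.0% at DENND2B-AS1, 49.0% at OR2S2, 56.7% at DHPS and 66.7% at DNASE1L2, where the median over all 27304 promoter sequences was 58.3%. Both windows that held a summit were therefore below the median. The remaining windows reached by a peak were those of FAM230F (147 bases), LOC124903888 (28 bases) and TRIM11-AS1 (24 bases).

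The promoter of MMAB (chr12:109573455-109573754, minus strand) is shown because it faces the promoter of MVK, and the peak chr12:109573176-109573452 stopped 2 bases short of it. MMAB encodes a mitochondrial enzyme that prepares vitamin B12 as a cofactor, and MVK encodes mevalonate kinase of the cholesterol and isoprenoid pathway. No base is in capitals since the peak shared none with this window.
MMAB: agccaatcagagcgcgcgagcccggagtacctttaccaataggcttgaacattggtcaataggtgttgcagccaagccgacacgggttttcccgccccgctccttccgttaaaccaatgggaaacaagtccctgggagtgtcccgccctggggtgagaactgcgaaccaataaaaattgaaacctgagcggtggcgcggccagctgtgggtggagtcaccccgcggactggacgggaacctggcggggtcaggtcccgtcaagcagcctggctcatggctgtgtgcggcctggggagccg

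The summit of this peak lay, by the gene table, 160 bases inside the start of MMAB and 72 bases inside that of MVK, whose promoter window began 91 bases beyond the end of the peak. Its fold enrichment was 4.04 from 13 reads, with a q-value of 0.177. For MVK and for DHPS the start in the gene table differed from the start behind the promoter sequence, so the summits lay 72 and 196 bases inside these genes by the gene table but 450 and 314 bases upstream of the start behind the promoter sequence. FAM230F, another promoter reached, differed more, with its summit 3879 bases inside the gene by the gene table and 86 bases past the start behind the promoter sequence.

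The peaks near gene ends were low. The fold enrichment, the ratio of reads at the summit to the background with 1 added to each, had a median of 3.46 (quartiles 3.13 and 3.78) and ran from 2.56 to 5.14. The summit held a median of 9 reads (range 7 to 17), the background a median of 1.89, and 193 of the 233 peaks had 10 reads or fewer. At that background 1 read more or less moves the fold by 0.346, so most differences between single peaks were within a read or a pair of reads. The lowest background, 1.53, was shared by many peaks, among them the one with the highest fold. At that value the fold follows from the number of reads alone. The median length was 220 bases (range 186 to 668). The other 680 peaks had a median fold of 3.41 (range 1.98 to 5.93), 9 reads at the summit and a length of 216 bases, so the medians of the groups were close, while the highest number of reads among the other peaks was 1607.

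A q-value, the p-value adjusted over the authors' tests, of 0.05 or less was found for 3 of the 233 peaks, 1.29% (exact binomial interval 0.266% to 3.72%), beside 2.96% of all 913 peaks. The median q-value was 0.776 and 191 of the peaks had a q-value above 0.5. A fold enrichment of 4 or more was found for 31 peaks, 13.3% (9.22% to 18.4%), beside 12.4% of the whole list. By neither measure did the share near gene ends differ from the list by more than its counting interval.

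**Figure D1:**
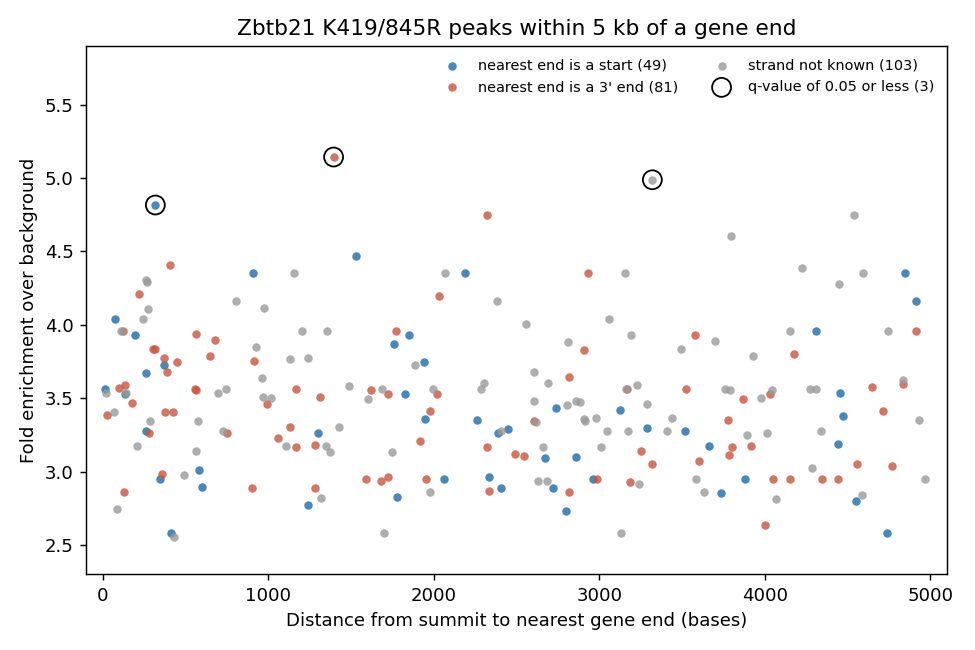
Fold enrichment over background (vertical axis) of the 233 peaks against the distance in bases from the summit to the nearest gene end (horizontal axis), coloured by the kind of that end, with rings around the 3 that had q-values of 0.05 or less. The points lie between 2.56 and 5.14 at all distances, and the ringed peaks are the highest 3.

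The distance from the summit to the nearest gene end ran from 10 to 4967 bases with a median of 2323 bases, and 40 peaks lay within 500 bases. The plot of fold against distance shows high and low peaks at every distance. At the edge of the window, the last members were those at MARCHF11-AS1 (4913 bases, fold 4.16), ADAMTS8 (4932 bases, fold 3.35) and LOC105370685 (4967 bases, fold 2.95). The first peaks beyond it were those at CTAGE7P (5015 bases, fold 2.58), LOC105377675 (5038 bases, fold 3.35) and GSTA7P (5103 bases, fold 4.24), which spanned a like range.

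Whether the peaks gather at gene ends was read against the share of bases. Windows of 5 kb around gene ends cover 23.4% of the chromosomes when each chromosome is weighted by its number of peaks, so a summit placed anywhere on its chromosome would fall in a window for 214 of the 913 peaks. The count of 233 was 1.09 times that number, and the interval of the observed share, 22.7% to 28.5%, held the share of bases. When only bases within 1 Mb of a gene were counted, the shares were 25.6% of peaks and 24.5% of bases, a ratio of 1.05. Within 1 kb of a gene end the shares were 6.79% of peaks and 6.32% of bases. Within 10 kb they were 41.1% (37.9% to 44.3%) and 37.3%, so there the interval left out the share of bases, as it did for protein-coding genes alone, with 21.4% (18.7% to 24.2%) beside 18.2%. These shares at 10 kb are of whole chromosomes, unsequenced and gene-free stretches included. The limit to bases within 1 Mb of a gene raised the share at 5 kb from 23.4% to 24.5%. It was not applied at 10 kb, so whether these intervals would leave out such a share was not tested. Of the 233 summits, 156 lay inside a gene body, 67.0% (60.5% to 73.0%), where 63.6% of the bases in the windows do.

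The start and the 3′ end of a gene did not hold equal numbers of peaks. The strand was known for 29078 of the 59675 genes, among them 79.1% of the protein-coding genes and 62.6% of the lncRNA genes but none of the pseudogenes. Near the starts of these genes 66 peaks were found, 7.23% of the list (5.63% to 9.11%), beside 8.27% of bases. Near their 3′ ends 101 peaks were found, 11.1% (9.10% to 13.3%), beside 8.82% of bases. The count near starts was 0.874 times the number given by bases and the count near 3′ ends 1.25 times. The lower limit at 3′ ends, 9.10%, lay close to the 8.82% of bases. Both shares of bases are of whole chromosomes, unsequenced stretches included, and no other share was computed for starts and 3′ ends. Within 1 kb, 16 peaks lay near a start where bases give 16.3, and 27 near a 3′ end where bases give 17.5. Within 10 kb, 144 lay near a start where bases give 141, a ratio of 1.02, so the count near starts was not low at that distance, and 180 near a 3′ end where bases give 148. Of the 233 peaks 28 were near both a start and a 3′ end, and 94 were near ends of unknown strand only.

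The median fold was 3.35 near starts (66 peaks), 3.41 near 3′ ends (101 peaks) and 3.53 near ends of unknown strand (125 peaks), and the SD between single peaks was 0.520, 0.464 and 0.477. The 28 peaks near both kinds of end are counted in both, and no test of the classes was made. A fold of 4 or more was found for 11 peaks near starts (16.7%), 9 near 3′ ends (8.91%) and 19 near ends of unknown strand (15.2%), beside 12.4% of the list.

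The side of the gene end carried the difference, and protein-coding genes showed it most. Counting each pair of a peak and a gene end, 9 pairs lay within the first 5 kb of a protein-coding gene, past its start (95% exact Poisson interval 4.12 to 17.1), where the share of bases gives 23.6, a ratio of 0.382. Upstream of the start there were 26 pairs (17.0 to 38.1) where bases give 25.5. In the last 5 kb of the gene, before its 3′ end, there were 39 pairs (27.7 to 53.3) where bases give 23.6, a ratio of 1.65. Beyond the 3′ end there were 27 pairs (17.8 to 39.3) where bases give 25.5. Pairs whose summit lay past the other end of a short gene, 6 of protein-coding and 15 of all genes of known strand, are in none of these groups. The counts were thus low inside the start, high inside the 3′ end, and within their intervals of the base share on the outer sides.

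For lncRNA genes the groups inside the gene were closer to the base share than for protein-coding genes, with ratios of 0.891 and 1.30. The groups outside the gene lay further from it, with ratios of 0.800 and 0.686 beside 1.02 and 1.06. There were 13 pairs inside the start (6.92 to 22.2) beside 14.6, 14 upstream of it beside 17.5, 19 inside the 3′ end (11.4 to 29.7) beside 14.6, and 12 beyond it beside 17.5. Over genes of all biotypes with known strand there were 22 pairs inside the start (13.8 to 33.3) beside 38.2, and 58 inside the 3′ end (44.0 to 75) beside 38.2. In all, 12 such groups were counted, and the interval left out the base share in 4, which are the inside of the start and of the 3′ end for protein-coding genes and for all biotypes. These 4 are not separate, since the groups of all biotypes contain the protein-coding pairs, 9 of the 22 and 39 of the 58. These are counts of 1 library with no replicate, some pairs share a peak, and no test was made. How evenly reads can be mapped across gene starts and 3′ ends was not tested.

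**Figure D2:**
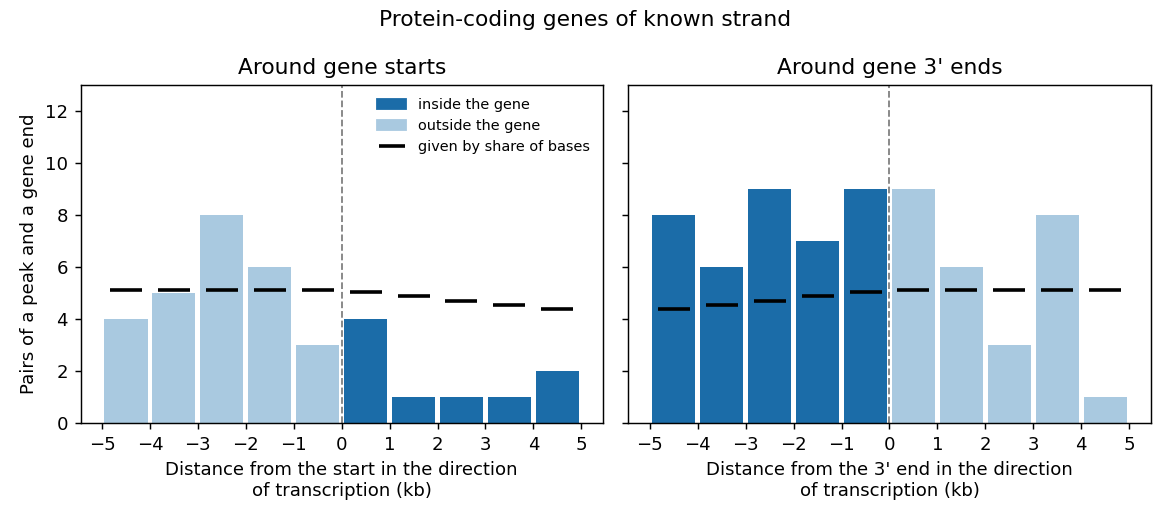
Pairs of a peak and a gene end (vertical axis) in steps of 1 kb around the starts (left) and 3′ ends (right) of protein-coding genes of known strand, with distance in kb in the direction of transcription (horizontal axis), dark bars inside the gene, light bars outside it and black marks for the number given by the share of bases. Past the start the bars are 4, 1, 1, 1 and 2, all below the marks, while all 5 dark bars before the 3′ end, 6 to 9 pairs each, are above them.

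The plot around starts and 3′ ends places the low counts between 1 and 5 kb past the start, where the steps held 1, 1, 1 and 2 pairs beside 4.88, 4.71, 4.55 and 4.39 given by bases. The first 1 kb past the start held 4 pairs beside 5.06, of which MVK and DHPS lie upstream by the promoter starts. With starts taken from the promoter sequences, a choice made after seeing the data, this step held 2 pairs beside 5.06, and the first 5 kb again held 9 pairs (4.12 to 17.1) beside 23.5, with MIA3 and NEDD4L in place of MVK and DHPS. The upstream side again held 26. Before the 3′ end, the steps held 9, 7, 9, 6 and 8 pairs from the end inwards, beside 5.06, 4.88, 4.71, 4.55 and 4.39.

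The 9 protein-coding genes with a summit inside the first 5 kb by the gene table are named here after their values were seen. MVK and MMAB, which share a peak, and DHPS, whose enzyme makes the modified lysine hypusine in a translation factor, lay within 196 bases of that start, MVK and DHPS only by the gene table. FABP1, a fatty acid binding protein of liver and gut, had a summit 907 bases past the start with a fold of 4.35 and 10 reads. AOX1, an aldehyde oxidase, followed at 1779 bases with a fold of 2.83 and 7 reads, one of the lower values. RHEB, a small GTPase that switches on the mTOR kinase, lay at 2857 bases (fold 3.10, 11 reads) and RNF25, a ubiquitin ligase, at 3286 bases (fold 3.30, 8 reads). GPC5, a glypican of the cell surface, lay at 4471 bases (fold 3.38, 9 reads) and HMX1, a homeobox transcription factor, at 4847 bases (fold 4.35, 10 reads). None of these peaks had a q-value below 0.177, the value of the MVK and MMAB peak.

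Among the peaks closest to a gene end, several lay at 3′ ends of coding genes. The summit nearest to a coding 3′ end was 25 bases beyond TAS2R60, a bitter taste receptor (chr7:143444310-143444514, fold 3.39, 9 reads). PGAM1, a phosphoglycerate mutase of glycolysis, had a summit 99 bases beyond its 3′ end (chr10:97433523-97433713, fold 3.57, 11 reads). SAG, the arrestin of rod photoreceptors, had one 126 bases beyond (fold 2.86, 7 reads) and SBNO2 one 133 bases beyond (fold 3.59, 10 reads). Inside the gene, ACTR1A, a subunit of the dynactin motor complex, had a summit 173 bases before its 3′ end (fold 3.46, 11 reads). IL12B, a cytokine subunit of immune cells, had the highest fold of these, 4.21 with 11 reads, 221 bases before its 3′ end (chr5:159314900-159315091, q-value 0.256). The q-values of the other 5 lay between 0.550 and 0.987.

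MVK, MMAB and DHPS, described with the gene starts, a J segment, and genes annotated as noncoding or pseudogenes made up the rest of the closest 20. The last place was a tie at 259 bases, and both genes are given. The summit at LOC105378650 was 10 bases before the start (fold 3.56, 8 reads) and that at LOC107986229 was 135 bases before it (fold 3.53, 9 reads), which are the promoters with a summit inside. The summit at LOC100506472, of unknown strand, was 20 bases outside the gene (fold 3.53, 9 reads), and that of LOC124903537 lay 119 bases inside its 3′ end (fold 3.96, 9 reads). LINC01370 and LOC105378095 were marked at 206 bases (fold 3.18) and 259 bases (fold 4.30, q-value 0.130). TRIM11-AS1, a lncRNA gene, was also at 259 bases, upstream of its start (fold 3.67). The snoRNA gene LOC124903806 was marked at 65 bases (fold 3.41), and the pseudogenes LOC100421122, RAP1BP3 and RNU6-1150P at 107 bases (fold 3.96), 142 bases (fold 3.53) and 244 bases (fold 4.04). The J segment TRAJ54 completes the set at 86 bases.

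The 3 highest folds had only the end of a noncoding gene within 5 kb, and these peaks alone had q-values of 0.05 or less. The highest was chr11:35287492-35287716, 1394 bases beyond the 3′ end of SLC1A2-AS1, a lncRNA gene antisense to a glutamate transporter gene, with a fold of 5.14, 12 reads and a q-value of 0.0130. The next was chr5:75222029-75222253 with a fold of 4.99, 13 reads and a q-value of 0.0116, 3320 bases from SUMO2P5, a pseudogene derived from the gene for the modifier SUMO2. The third was chr11:8768317-8768606, whose summit lay 317 bases upstream of the start of DENND2B-AS1, a lncRNA gene, with a fold of 4.82, 12 reads and a q-value of 0.0342. This is the strongest peak at a gene start, and the capitals at the beginning of the DENND2B-AS1 sequence show where it entered the promoter. All 3 summits lay outside the noncoding gene named and inside the body of another gene, whose ends were more than 5 kb away.

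The following peaks did not reach that q-value. BPIFB2, of the family of bactericidal and permeability-increasing fold proteins, had a summit 2321 bases inside its 3′ end with a fold of 4.75 (q-value 0.0702), and LOC124900390 had the same fold at 4538 bases. LOC124901794, annotated as protein-coding, followed at 3798 bases with a fold of 4.60 and 11 reads (q-value 0.0927). S100A7, a calcium-binding protein of skin keratinocytes, had a summit 1528 bases upstream of its start with a fold of 4.47 (q-value 0.130), and the lncRNA gene LOC124904422 lay on the other side of that peak. MIR12122 had a fold of 4.40 (q-value 0.100) and LOC124901425 one of 4.39 (q-value 0.0702). The next fold, 4.35 with 10 reads, was shared by several peaks, among them those at FABP1, HMX1, YJU2, a splicing factor, NKD1-AS1 and the pseudogene KDM3AP1.

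A peak could lie near several genes. Of the 233 peaks, 178 were near 1 gene, 47 near 2, 4 near 3, 3 near 4 and 1 near 9, which made 395 pairs of a peak and a gene end. The peak near 9 genes was chr14:22482111-22482333 in the T cell receptor alpha and delta locus, where short J segments follow each other and are joined to V segments in developing T cells. Its fold was 2.74 with 8 reads and a q-value of 0.987. It marked TRAJ51, TRAJ52, TRAJ53, TRAJ54, TRAJ55, TRAJ56, TRAJ57 and TRAJ58, with the summit 86 bases from TRAJ54, and it lay 758 bases inside the start of TRD-AS1. A low peak thus gave every marked J segment.

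The peak chr16:2235984-2236267 lay 345 bases upstream of the start of DNASE1L2, a DNase of skin, and 357 bases beyond the 3′ end of E4F1, a zinc finger regulator of the cell cycle. ECI1, an enzyme of mitochondrial fatty acid oxidation, had its 3′ end 3303 bases away and ECI1-AS1 lay at 4445 bases. This peak had a fold of 2.95, 8 reads and a q-value of 0.987. The peak chr19:1379376-1379586 (fold 3.31, 8 reads) lay 1128 bases beyond the 3′ end of PWWP3A, a chromatin protein, near the tRNA genes TRF-GAA1-6 (3805 bases) and TRN-GTT2-6 (4006 bases), and 4350 bases before the start of NDUFS7, a subunit of respiratory complex I. The peak chr8:144509923-144510111 (fold 3.64, 11 reads) lay inside SLC33A2, 964 bases from an end, 1254 bases from RECQL4, a DNA helicase, and 2862 bases from GPT, an alanine aminotransferase.

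LOC107986338, a lncRNA gene at chr4:190105246-190112749, was the only gene with more than 1 of these peaks and had 3, all inside the gene. They were chr4:190108185-190108401 (fold 2.58, 9 reads, q-value 1.00), chr4:190109542-190109806 (fold 3.28, 9 reads, q-value 0.776) and chr4:190110967-190111339 (fold 3.13, 17 reads, q-value 0.379). The 17 reads of the last were the highest number among the peaks near gene ends, shared with a peak inside NBPF1 (4769 bases from its 3′ end, fold 3.04).

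Where strand was known, 16 peaks lay near ends of more than 1 gene. The starts of 2 genes were shared by 4 peaks, which were MVK with MMAB, RNF25 with the ciliary kinase gene STK36 (3370 bases upstream of its start), TRIM11-AS1 with MIR6742, and S100A7 with LOC124904422. In the last 2 pairs the summit lay beyond the 3′ end of MIR6742 (3017 bases, start at 3078) and of LOC124904422 (1615 bases, start at 3931). The 3′ ends of 2 genes were shared by 7 peaks, and 14 peaks lay near the start of a gene and the 3′ end of another. A peak could be in several of these counts. The counts also include summits past the other end of a gene, as at the 3′ ends of TRIM11-AS1 (2936 bases) and S100A7 (4435 bases).

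The 303 marked genes were of the biotypes that the windows of the annotation give. There were 136 protein-coding genes (44.9%), 88 lncRNA genes (29.0%) and 53 pseudogenes (17.5%), where the share of bases gives 118, 93.1 and 52.3. There were also 6 miRNA genes beside 6.09, 5 snoRNA genes beside 3.51, 4 transcribed pseudogenes beside 6.52 and 2 tRNA genes beside 1.56. J segments stood apart with 6 genes beside 0.221, and 2 J segment pseudogenes beside 0.0145, all from the T cell receptor peak. A V segment pseudogene was the last. The plot of biotypes shows marked genes and the number given by bases side by side.

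**Figure D3:**
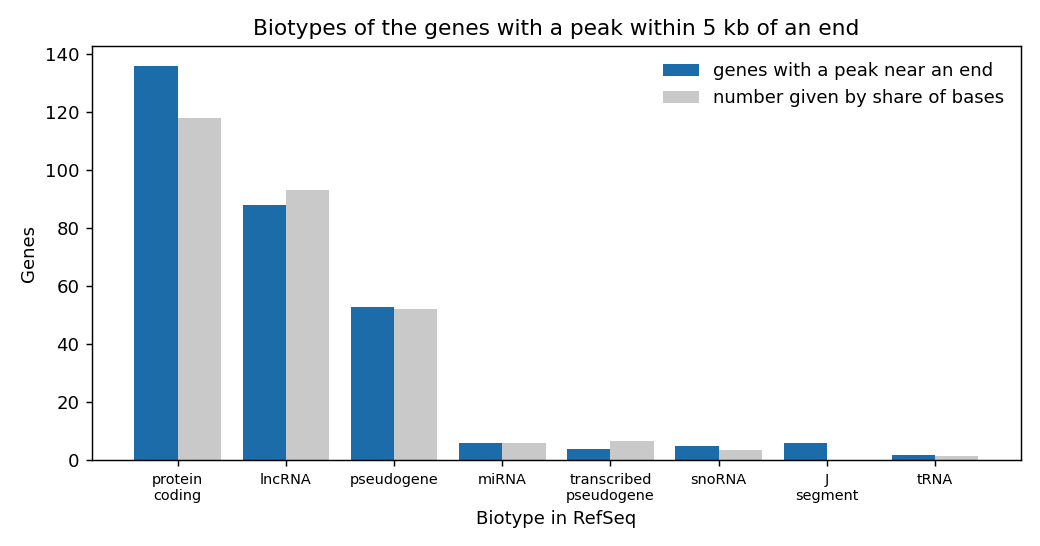
Number of genes (vertical axis) with a peak summit within 5 kb of an end, by RefSeq biotype (horizontal axis), in blue, beside the number given by the share of bases, in grey. Protein-coding genes stand at 136 beside 118 and lncRNA genes at 88 beside 93.1, and the 6 J segments come from 1 peak.

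Of 25 gene families drawn up by symbol, 16 had a marked gene and 9 had none. The zinc finger genes, the largest family of human transcription factors, had 4 marked of 765 beside 5.05 given by bases. These were ZNF561 (373 bases, fold 3.41), ZSCAN20 (449 bases, fold 3.75), ZNF500 (1283 bases, fold 2.89) and ZNF410 (3782 bases, fold 3.11). All 4 were marked at the 3′ end and none at the start, and their peaks had 7 to 10 reads.

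The family of Zbtb21 itself had 1 marked gene of 60, beside 0.323 given by bases. This was ZBTB34, with a summit 314 bases beyond its 3′ end (chr9:126885970-126886325, fold 3.84, 10 reads, q-value 0.524). None of 29 genes of the SUMO pathway and of corepressors was marked (0.184 given by bases), and none of 15 genes of replication licensing (0.0852 given by bases), a process that loads the helicase before DNA is copied. With numbers this far below 1 a count of 0 carries little information. SUMO2P5 is a pseudogene and was not in the SUMO list.

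Repeated small RNA genes and their pseudogenes made up several families. Pseudogenes of the RNA of the signal recognition particle, named RN7SL, had 6 marked genes at 5 peaks beside 3.28 given by bases for the 1060 genes of the 7SK, Y and 7SL list. The nearest were RN7SL444P (270 bases, fold 4.11) and RN7SL835P (803 bases, fold 4.16), the latter sharing its peak with RN7SL823P, and then RN7SL612P (2813 bases, fold 3.88). Small nuclear RNA genes other than U6 had 4 marked of 512 beside 1.56, namely the pseudogenes RNU2-65P (973 bases, fold 4.11), RNU4ATAC2P (3041 bases, fold 4.21), RNU2-72P (3630 bases, fold 2.86) and RNU2-60P (4132 bases, fold 3.56). U6 genes had 2 marked of 1325 beside 4.09, RNU6-1150P and RNU6-945P (2860 bases, fold 3.48), and 5S ribosomal RNA genes had 0 of 527 beside 1.66. Small nucleolar RNA genes listed by symbol, which leaves out those with a LOC symbol such as LOC124903806, had 2 of 574 beside 1.65, SNORA107 (2285 bases) and SNORA118 (2690 bases). All these summits lay outside the genes they mark.

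Ribosomal protein pseudogenes had 5 marked of 1885 beside 6.29, the nearest being RPL21P93 (265 bases, fold 4.29), RPL8P5 (926 bases, fold 3.85), RPL15P22 (2305 bases, fold 3.60) and RPL12P24 (3192 bases, fold 3.93). Ribosomal protein genes themselves had 0 of 82 beside 0.400. Olfactory receptor genes had 2 of 875 beside 3.04, OR2S2, with a summit 260 bases upstream of its start (fold 3.28), and OR51N1P (4746 bases, fold 3.96). Solute carrier symbols had 3 of 552 beside 3.06, which were SLC33A2, SLC68A1 (2357 bases from the 3′ end, fold 3.46) and the antisense gene SLC1A2-AS1. Ion channel genes had 1 of 299 beside 1.80, GABRP, a subunit of the receptor for the transmitter GABA (2817 bases, fold 3.64). A list of developmental transcription factors, drawn by symbol from families such as SOX, FOX and TBX, had 2 of 163 beside 0.849, FOXN2 (1975 bases, fold 2.86) and SOX10 (2390 bases, fold 3.93). MIR4534 was marked by the same peak as SOX10. The list does not hold every such gene, and the homeobox genes HMX1, GSC2 (1825 bases, fold 3.53) and POU2F1 (2986 bases, fold 2.95) were marked too.

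Genes with systematic symbols, most of them noncoding, stood near the share of bases. Long intergenic genes (LINC) had 9 marked of 2312 beside 12.5, with LINC01370, LINC00323 (559 bases, fold 3.56), LINC00379 (911 bases, fold 3.75) and LINC02534 (1697 bases, fold 2.58) nearest. Antisense genes had 12 of 2041 beside 10.8, with TRIM11-AS1, DENND2B-AS1, TRD-AS1 and SLC1A2-AS1 nearest. Unnamed loci (LOC) had 75 of 16318 beside 76.5. Histone, HOX, cadherin, keratin and small RNA host genes had none, where bases give 0.436, 0.167, 0.713, 1.37 and 0.596.

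The 6 miRNA genes were marked at distances of 405 to 4311 bases, beside 6.57 given by bases for the 2000 genes of the miRNA list. A miRNA guides repression of transcripts that pair with its seed, bases 2 to 8. MIR12122 was the nearest, with the summit 405 bases beyond its 3′ end and the highest fold, 4.40 (12 reads). MIR4534 was marked at 1849 bases (fold 3.93), MIR6742 at 3017 bases (fold 3.67), MIR3156-1 at 3663 bases (fold 3.17), MIR4661 at 3890 bases (fold 3.25) and MIR6130 at 4311 bases (fold 3.96). RefSeq gave a mature sequence for 5 of the 6 genes. That of MIR12122 (chr20:49863869-49863893, plus strand, GRCh38.p14) is shown with its seed in capitals because its gene is the only 1 of the 6 with a peak within 500 bases and a fold above 4.
hsa-miR-12122: uGUCACAGauggccggaagagacuc

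Short motifs were counted on both strands of the 300-base promoters of the marked genes, as a description. GGGCGG, the GC box bound by factors of the SP family, was found in 22 of 65 promoters of genes marked at the start, 33.8% (22.6% to 46.6%), in 44.2% of the 104 promoters of genes marked at the 3′ end, and in 44.5% of all 27304 promoters. GCGCGC was found in 13 of 65, 22.1% and 18.7%, CCAAT in 24.6%, 31.7% and 35.7%, CACGTG in 10.8%, 6.73% and 7.41%, and TATAAA in 8 of 65, 12 of 104 and 3283 of 27304. TGACTCA, the site of AP-1 factors, was found in 8 of 65 promoters of genes marked at the start, 12.3% (5.47% to 22.8%), in 5.77% of those marked at the 3′ end and in 4.90% of all promoters. Of the 6 motifs this was the only 1 whose interval at starts left out the share of all promoters. Its lower limit, 5.47%, lay close to the 4.90% of all promoters, and the intervals were not adjusted for the number of motifs. Among the printed promoters TGACTCA was in that of DENND2B-AS1, CCAAT was in those of LOC107986229, DHPS and MMAB, GGGCGG was in those of DNASE1L2, DHPS and MMAB, and GCGCGC was in those of DHPS and MMAB.

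Promoters of genes marked at the start had a median of 7.0 CpG dinucleotides, beside 11 for genes marked at the 3′ end and 13.5 for all promoters. Their median GC content was 57.3%, beside 58.0% and 58.3%. These counts concern the promoter of each gene and not the DNA under the peak, which in most cases lay elsewhere within 5 kb.

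The peaks were also counted by chromosome. On chromosome 19, which has the largest share of bases in the windows, 13 of 26 peaks were near a gene end (interval 29.9% to 70.1%) beside 47.7% of bases. Chromosomes 16 and 20 each had 9 of 19 peaks, 47.4% (24.4% to 71.1%), beside 26.2% and 27.5% of bases. The X chromosome had 8 of 77, 10.4% (4.59% to 19.4%) beside 17.9%, and chromosome 3 had 6 of 42, 14.3% beside 20.8%. Chromosome 1, with the most peaks, had 35 of 118, 29.7% beside 26.0%, and chromosome 10 had 22 of 87, 25.3% beside 22.3%. On each of the 23 chromosomes with peaks the interval held the share of bases, and on 18 of them the share of peaks was the higher.

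**Figure D4:**
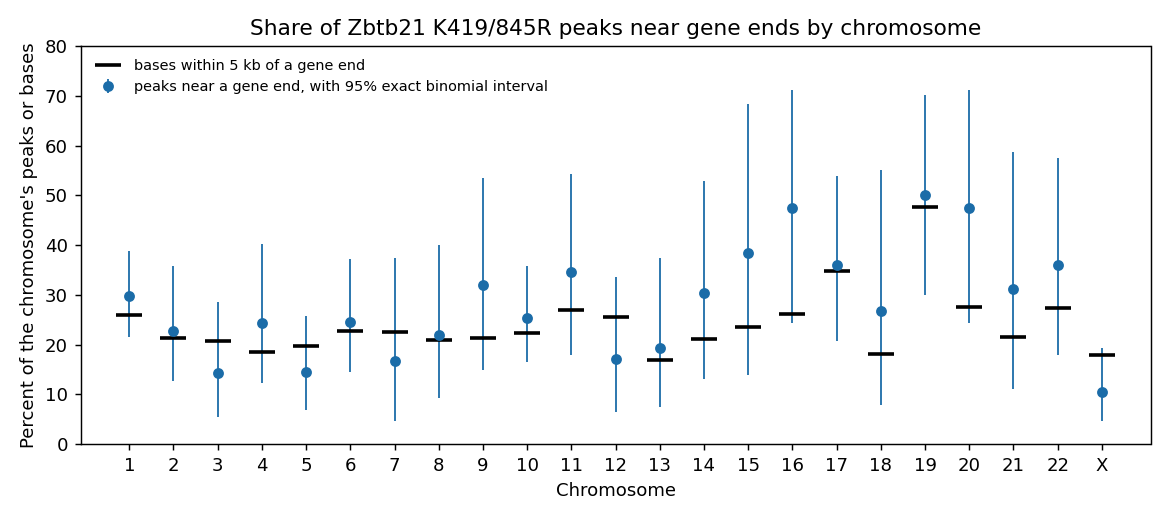
Percent of each chromosome's peaks with a summit within 5 kb of a gene end (blue points with 95% exact binomial intervals) and percent of its bases in those windows (black marks), by chromosome (horizontal axis). The points run from 10.4% on X (8 of 77) to 13 of 26 peaks on chromosome 19, and every interval spans its black mark.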

How the data were processed

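After crosslinking and enzymatic shearing of chromatin, the authors deposited the peak list of the ChIP library used here. Its deposited columns hold a score, a fold enrichment (a ratio) and −log10 p-values and q-values. The submitters' processing notes name cutadapt 2.5, Bowtie2 2.3.5.1, MACS2 2.1.2, HOMER 4.10.4 and hg38, without their roles. The lowest −log10 p-value was 3.05, and the score of all 913 peaks equalled 10 times this column, cut to a whole number.

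Peaks were joined to 59675 RefSeq genes of GRCh38.p14. The gene table gives no strand, so strand came from the RefSeq promoter and miRNA sequences. Reads and background at each summit were solved from fold and p-value, with 1 added to each. The reads came out whole in 913 peaks, with a tolerance of 0.0005 in −log10 p. In place of random placements, the exact share of bases in the windows was computed per chromosome and weighted by peaks. Unsequenced stretches were not left out. Shares have exact binomial and pairs exact Poisson intervals of 95%. No p-value was computed. The scripts were tested on simulated data.

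The members and lists were chosen with earlier results of these data known. Genes were named when among the 20 nearest within 500 bases of a summit, the 10 highest folds, q-values of 0.05 or less, summits in a promoter (at most 8 printed), genes with 2 or more peaks, peaks near 4 or more genes, up to 4 examples for each family with 2 or more marked genes, and ZBTB and SUMO genes. Not every gene the rule names is given. Other windows, a cutoff on q or fold, any peak base, coding genes only and nearest ends only were tried, and, after seeing the data, starts from the promoter sequences. Peak sequences outside promoter windows were not analysed here. Python 3.11.15, numpy 2.4.6, pandas 2.3.3, scipy 1.17.1, matplotlib 3.10.9 and GenomeInfoDb 1.38.1 (chromosome lengths) were used.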

Additional observations from a re-analysis of the deposited data

How the results depend on the processing

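The number of peaks near a gene end moved with the window, from 62 at 1 kb, 107 at 2 kb and 153 at 3 kb to 375 at 10 kb, and the number of genes from 71, 128 and 187 to 587. With protein-coding genes only, 113 peaks and 136 genes remained, and with a fold of at least 4, 31 peaks and 40 genes. Where the −log10 q-value had to reach 2, 0 of 11 peaks and 0 genes were left and the ratio to the share of bases was 0. A count of 0 of 11 allows a share of up to 27.3% by a limit of 3 counts and 28.5% by the exact two-sided binomial interval, with 24.2% given by bases. In the other settings that changed a single choice the ratio lay between 1.03 and 1.16, and for coding genes it was 1.21 at 1 kb, 1.14 at 2 kb, 1.21 at 3 kb and 1.17 at 10 kb. That of 1.11, for any base of the peak in the window, is set against single bases and is therefore somewhat high.

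Genes marked at the start made up 39.1% of gene ends of known strand, 37.0% at 1 kb, 45.3% at 10 kb, 34.6% for coding genes, 37.7% with nearest ends only and, in a setting added after seeing the data, 38.1% with starts from the promoter sequences. The number of peaks near starts against bases was 0.874 at 5 kb but 1.02 at 10 kb. The median fold of 3.46 stayed between 3.39 and 3.56, and the coding share of 44.9% between 43.7% and 45.3%. No paired analysis was possible because there was 1 library, which also left no replicate to leave out. With a median of 9 reads at the summit, depth limits the order of single peaks.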
